A study of Mus musculus with 3 samples.

Results

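The genes described here encode the proteins of the mitochondrial ribosome. They were taken as every mouse gene with a symbol made of Mrpl or Mrps, a number and at most 1 further letter, as the only symbol of a probe set. The rule found 76 genes among the 18194 genes named on the array, 47 of them Mrpl genes and 29 Mrps genes. Where a gene had several probe sets, the one whose signal averaged highest over the 3 arrays stood for it. RefSeq lists 78 genes of this pattern, and the other two, Mrpl30 and Mrpl53, have only probe sets shared with another symbol and were not measured here.

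The RNA came from WR19L, a T-lymphoma line of BALB/c mice, kept in culture without treatment, and each group is 1 Affymetrix array. One array held the parental cells. Another held DKO cells, a WR19L derivative that lacks flippase activity according to the series design, with a stable wild-type human ATP11A transgene. The third held DKO cells with a transgene for the Q84E mutant. ATP11A, the human protein in question, is a phospholipid flippase of the plasma membrane. Both transgenic groups thus share the DKO background, and DKO cells without a transgene were not analysed here, so in a ratio over parental cells the knockout, the transgene and the history of the line cannot be told apart. The sources used here give neither the promoter of the transgene nor whether each line is 1 clone. With a single array in each group there was no replicate, no test across cultures and no p-value, and the number of arrays limits the precision.

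Mitochondria keep a ribosome of their own, which makes the few proteins of the respiratory chain that are encoded by mitochondrial DNA. Its RNAs are also made in the mitochondrion, whereas all of its proteins are encoded in the nucleus, translated in the cytosol and imported. A small subunit reads the messenger RNA and a large subunit joins the amino acids. Many of the proteins descend from those of bacterial ribosomes and others have no bacterial relative. The promoters of such nuclear genes are known to hold sites for the factors NRF1 and GABP, an ETS family factor, and for YY1.

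Because the genes were followed as a group, the starts of their promoters are shown first, as examples of the letters that many of them share. RefSeq promoter windows of assembly GRCm38.p6, each reaching from 250 bases before to 50 bases after a start site, were matched by symbol for 67 of the 76 genes. A window was not found in the table for Mrpl4, Mrpl13, Mrpl15, Mrpl19, Mrpl38, Mrpl54, Mrps28, Mrps34 and Mrps35. The 5 stretches that follow are the 100 bases before the start, read 5′ to 3′ on the strand of the gene. Capitals mark matches to the NRF1 letters GCGCANGCG, where N is any base, or the ETS letters CCGGAAG, on either strand. Mrpl12 is shown for the highest signal of the genes, Mrpl22 for matches of both kinds, Mrpl32 and Mrpl43 for repeated matches, and Mrps27 for a low ratio in Q84E cells. They lie at chr11:120484537-120484636 (plus strand), chr11:58171564-58171663 (plus strand), chr13:14613038-14613137 (minus strand), chr19:45006443-45006542 (minus strand) and chr13:99344686-99344785 (plus strand), in that order.
Mrpl12: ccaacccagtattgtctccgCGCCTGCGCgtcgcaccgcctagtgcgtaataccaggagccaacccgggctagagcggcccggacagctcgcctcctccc
Mrpl22: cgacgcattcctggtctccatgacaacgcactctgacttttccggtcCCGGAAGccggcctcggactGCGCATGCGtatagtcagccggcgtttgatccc
Mrpl32: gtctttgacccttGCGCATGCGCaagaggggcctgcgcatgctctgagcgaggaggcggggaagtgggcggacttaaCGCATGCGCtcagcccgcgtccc
Mrpl43: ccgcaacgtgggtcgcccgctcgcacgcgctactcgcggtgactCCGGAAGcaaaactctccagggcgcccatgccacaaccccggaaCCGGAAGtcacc
Mrps27: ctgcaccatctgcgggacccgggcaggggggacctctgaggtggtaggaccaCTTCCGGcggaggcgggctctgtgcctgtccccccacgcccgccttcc

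The YY1 letters AAGATGGC were found at a recurring place. In 8 genes they lay after the start site, in each case on the strand of the gene, with their first base between 12 and 37 bases into the transcript, counted from 1 at the start site. Such a match was present in 11.9% of the 67 genes and in 2.60% of the 9043 compared protein-coding genes with a window. The letters contain ATG, and whether that is the start codon of these genes was not examined. The 8 sites are shown with 10 bases on each side, and that of Mrps24 ends with its window. They lie at chr6:71823744-71823771 (minus strand), chr4:107066823-107066850 (minus strand), chr10:95501905-95501932 (minus strand), chr19:6057722-6057749 (minus strand), chr17:46111005-46111032 (plus strand), chr11:5707652-5707675 (minus strand), chr13:99344790-99344817 (plus strand) and chr11:115604148-115604175 (plus strand), in the order printed.
Mrpl35: ggcaggctgcAAGATGGCggcttccatc
Mrpl37: tgcacgggcaAAGATGGCggcgtccagg
Mrpl42: agattgaagcAAGATGGCgagcgcgcgg
Mrpl49: ttgaggcgccAAGATGGCagcagcggtg
Mrps18a: ggtgcgttccAAGATGGCggccctcagg
Mrps24: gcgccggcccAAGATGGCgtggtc
Mrps27: ggtgcgctccAAGATGGCggctcccatg
Mrps7: gacagcggccAAGATGGCtgcccccgcg

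A signal is the brightness that the authors' MAS5 software gave a probe set, on a linear scale, and signals of different probe sets cannot be set against each other as amounts of RNA. On each of the 3 arrays, all 76 genes lay at or above the 75th percentile of the probe sets, which was a signal of 369 to 392, and 65 lay at or above the 90th. The lowest signal of a member was 792, for Mrpl33 with wild-type ATP11A, and the highest 12218, for Mrpl12 in parental cells. None lay under the floor, the 50th percentile of each array, that was set for low signals. The label of a T cell line was checked against markers: 8 of the 9 T cell genes with a probe set lay above the floor on every array, the exception being Cd3e. The summed signal of the 9 was 36637 in parental cells, 31768 in those with wild-type ATP11A and 36200 in Q84E cells. Marker lists of B cells, myeloid cells, erythroid cells and fibroblasts had summed signals between 138 and 331, with at most 3 genes of a list above the floor. Among them Cd79a, Cd79b, Itgam, Adgre1, Alas2, Col1a1 and Col3a1 lay under the floor on all 3 arrays. Pax5, Csf1r, Cd68, Klf1, Epor and Col1a2 lay above it on all 3, at signals between 53 and 158, all under the 75th percentile. Lyz2, Ms4a1 and Slc4a1 lay above it on some arrays only.

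The ribosomal protein genes of mitochondria were lower in Q84E cells than in both other groups, by a small amount shared by most of them. Their median signal was 3883 in parental cells, 3696 in wild-type ATP11A cells and 3433 in Q84E cells. The Q84E array gave the lowest of the 3 signals for 58 of the 76 genes, or 76.3%, while the parental array did so for 11 and the wild-type array for 7. Among the 6371 genes that were likewise at or above the 75th percentile on all 3 arrays, called bright genes here, the Q84E array was lowest for 36.1%. The parental array gave the highest signal for 45 of the 76 genes, the wild-type array for 23 and the Q84E array for 8, while among bright genes the shares were 32.1%, 27.2% and 40.7%. As the arrays measured bulk RNA, fewer cells of a kind and less RNA per cell cannot be told apart.

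**Figure D1:**
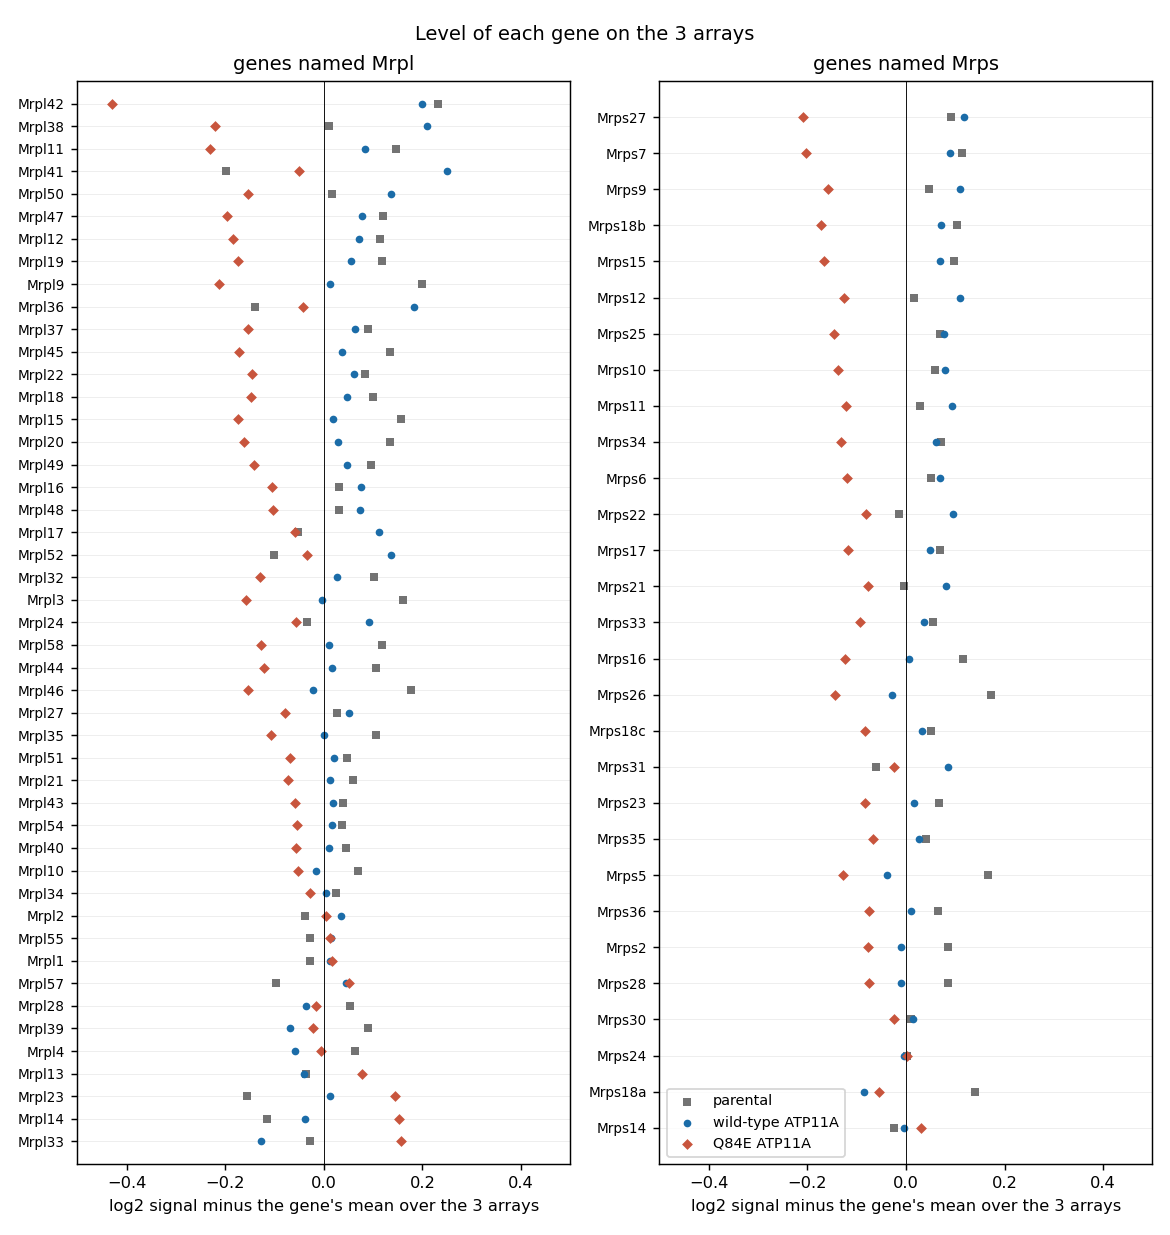
Each row is a gene, with its log2 signal on the parental array (grey squares), the wild-type ATP11A array (blue circles) and the Q84E array (red diamonds), minus the mean of the 3, on the x axis. Mrpl genes are on the left and Mrps genes on the right, ordered by the ratio of Q84E over wild-type. The red diamond is the leftmost point for 33 of the 47 Mrpl genes and 25 of the 29 Mrps genes.

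For Q84E over wild-type ATP11A, which sets the mutant against the normal protein in the DKO background, the median log2 ratio of the 76 genes was -0.14, or 1.10-fold lower. It was 0.046 over all 11617 genes compared and 0.0055 over the bright genes. A ratio below 0 was found for 64 of the 76 genes, against 41.9% of all genes compared and 48.6% of bright genes. Among the 2629 genes at or above the 90th percentile on all 3 arrays, which held most of the members, the share was 57.9% and the median was -0.028. By size, 9 members, or 11.8%, were at least 1.2-fold lower, which is near the 10.1% of all genes compared and above the 6.42% of bright genes. A single member was at least 1.2-fold higher, against 20.4% of all genes. No member was past 2-fold in either direction, against 1.37%. The result was thus a shift of many genes by little, and few genes with a large ratio.

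The error of a ratio was described by the disagreement of 2 probe sets of a gene over all such genes, as an SD scaled to 1 probe set. For Q84E over wild-type it was 0.16 for probe sets from the 75th up to the 90th percentile and 0.098 for those above. From the 50th up to the 75th it was 0.33, so shares of all genes past a fold, above and below, include noisier ratios than those of the members. This error does not cover differences between cultures of a line. Read against that error, 19 members, or 25%, were lower by over 2 technical SD, while 7.42% of the bright genes were. Higher by that margin were 0 members and 8.76% of the bright genes. The ratios of the 76 genes had an SD of 0.14 among themselves and a middle range, from the 25th to the 75th percentile, of -0.21 to -0.068.

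For wild-type ATP11A over parental cells the median log2 ratio was -0.021, against 0.0057 over all genes. Here 48 of the 76 genes had a ratio below 0, against 45.8% of all genes. None was at least 1.2-fold lower, against 12.4%, and 2 were at least 1.2-fold higher, against 14.2%, both shares being under that of all genes. All genes include dimmer ones, whose technical SD was 0.33 from the 50th up to the 75th percentile. Past 2-fold were 0 members and 1.47% of all genes. Of the members, 5 were lower by over 2 technical SD, near the 5.65% of bright genes, and 3 were higher, against 6.23%. The median was thus closer to 0 between these arrays than between either of them and the Q84E array.

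For Q84E over parental cells the median log2 ratio was -0.15, against 0.068 over all genes. This ratio uses the same Q84E array as the ratio over wild-type and is no separate evidence. A ratio below 0 was found for 62 of the 76 genes, against 40.3% of all genes. At least 1.2-fold lower were 17 genes, or 22.4%, against 12.6% of all genes and 10.4% of bright genes. At least 1.2-fold higher were 2 genes, against 23.9%, and past 2-fold were 0 genes, against 2.43%. By over 2 technical SD, 26 members were lower, or 34.2%, against 10% of bright genes, and 1 was higher, Mrpl23, against 11.6%.

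**Figure D2:**
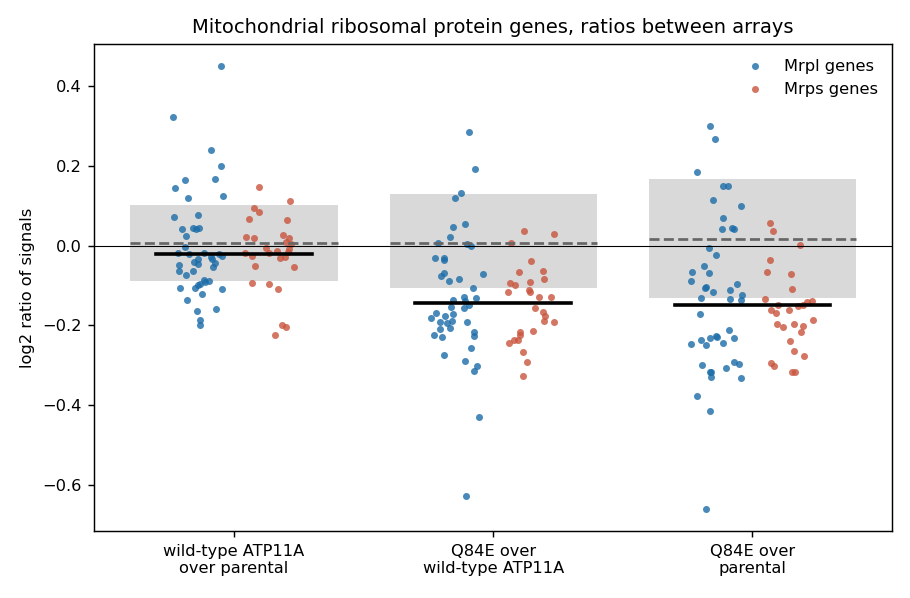
The y axis is the log2 ratio of signals and each point is a gene, Mrpl in blue and Mrps in red, for the 3 comparisons named on the x axis. Black lines are the medians of the 76 genes, -0.021, -0.14 and -0.15 from left to right, and grey boxes with dashed lines are the middle range and median of the 6371 bright genes. Points are spread sideways only to keep them apart.

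The scale of the arrays bears on these directions. The deposited signals had a common trimmed mean of 500.0. Scaling the arrays to a common median of all probe sets instead moved the median of all genes by -0.14 for both comparisons with the Q84E array, and the members' median for Q84E over wild-type became -0.28. Taken relative to the median of all genes, the members stood at -0.19 with the deposited scale, -0.19 with a common median and -0.12 with quantile normalization. With the common median 10 of the 12 members with a positive ratio turned negative, which left Mrpl14 and Mrpl33, and with quantile normalization 1 did, Mrpl1.

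The small subunit holds 26 of the genes. It binds the messenger RNA and hosts its decoding. Of these genes 24 had a ratio below 0 for Q84E over wild-type, with a median of -0.16, and the exceptions were Mrps14 and Mrps24. Over parental cells, the median was -0.012 for the wild-type array and -0.17 for the Q84E array. All of the ratios for Q84E over wild-type lay between -0.33 and 0.035.

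The lowest of them was Mrps27, an RNA-binding protein of the pentatricopeptide repeat family that only mitochondrial ribosomes have. Its signal was 1248 in parental cells, 1271 in wild-type ATP11A cells and 1014 in Q84E cells. The first 2 were close and the Q84E signal was 1.25-fold lower than the wild-type one, a log2 ratio of -0.33 from its only probe set. Of the proteins in the head of the subunit, Mrps7 had 3008, 2956 and 2416, again low on the Q84E array alone, at -0.29. Mrps9 had 2413, 2522 and 2095, at -0.27, but its next probe sets gave -0.15 and 0.21, so that its direction was not shared by all of its probe sets. In the same part of the ribosome Mrps10 was at -0.22 and Mrps14 at 0.035, the latter with signals of 6746, 6842 and 7011 that differed little.

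Mrps12, the counterpart of the bacterial protein at the decoding site, had signals of 4318, 4605 and 3912. It was thus highest with wild-type ATP11A and lowest with Q84E, with a log2 ratio of -0.24 between these. Mrps5, which lines the path of the messenger RNA, had 2216, 1924 and 1807. Its step lay between parental and wild-type cells, at -0.20, more than between wild-type and Q84E, at -0.091, but this order held for its brightest probe set alone. The other bright probe sets of Mrps5 gave -0.035 and 0.0063 for wild-type over parental and -0.41 and -0.13 for Q84E over wild-type. Mrps26 descended over the 3 arrays, with 5410, 4712 and 4347 and log2 ratios of -0.20 and -0.12.

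The 3 relatives of the bacterial protein S18 sit at different places, Mrps18c at the bacterial position, Mrps18b elsewhere in the small subunit and Mrps18a in the large one. Mrps18b had signals of 4241, 4148 and 3503 and Mrps18c 3316, 3277 and 3023. Both were lowest in Q84E cells, with log2 ratios over wild-type of -0.24 and -0.12. Mrps18a had 4359, 3730 and 3807, so that it was high in parental cells and alike in both transgenic lines, at -0.23 for wild-type over parental but 0.029 for Q84E over wild-type. The sign of the last value turned with a common median.

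The remaining small subunit genes followed the group. Mrps15, Mrps25, Mrps11, Mrps34, Mrps6, Mrps22, Mrps17, Mrps21, Mrps33, Mrps16 and Mrps31 had log2 ratios for Q84E over wild-type between -0.24 and -0.11. Mrps23, Mrps35, Mrps2 and Mrps28 lay between -0.099 and -0.064. Mrps24 stood apart by the evenness of its signals on the 3 arrays, 4767, 4744 and 4769, although its other bright probe set had 4151, 4431 and 4001, at -0.15 for Q84E over wild-type.

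The large subunit holds 49 of the genes, among them Mrps18a and Mrps30, which carry a small subunit name. It forms the peptide bonds and the tunnel through which the new chain leaves. For Q84E over wild-type 39 of the 49 had a ratio below 0, with a median of -0.14, and the range ran from -0.63 to 0.28. Its SD of 0.16 was above the 0.088 of the small subunit, and both ends of the whole group, Mrpl42 and Mrpl33, were large subunit genes. Over parental cells, the wild-type array had a median of -0.033 and the Q84E array of -0.13.

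Mrpl42, a protein that only mitochondrial ribosomes have, differed most. Its signal was 8512 in parental cells, 8322 in wild-type ATP11A cells and 5386 in Q84E cells. The parental and wild-type signals nearly coincided and the Q84E signal was 1.55-fold below the wild-type one, a log2 ratio of -0.63. It was the only member past 1.5-fold in any of the 3 comparisons. The value rests on 1 probe set, as the other probe set of Mrpl42 lay under the floor on all 3 arrays.

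Mrpl38, of the central protuberance at the top of the subunit, had signals of 1394, 1599 and 1188. It was highest with wild-type ATP11A and lowest with Q84E, at a log2 ratio of -0.43. Its other probe sets gave -0.21 and -1.56, the latter at signals of 79, 197 and 67, in the dim range where the error is largest. The other proteins of the protuberance were also below 0, Mrpl48 at -0.18, Mrpl46 at -0.13 and Mrpl40 at -0.068. Mrpl46 had 3011, 2623 and 2393, a descending order in which the step from parental to wild-type cells, -0.20, was the larger one.

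The stalk recruits the factors that drive translation. Mrpl12, its mobile part, which has also been described to bind the mitochondrial RNA polymerase, had signals of 12218, 11858 and 9930. Mrpl11, at the base of the stalk, had 4420, 4229 and 3403. Parental and wild-type signals were close in both genes and the Q84E signal was the low one, at log2 ratios over wild-type of -0.26 and -0.31. Further bright probe sets of Mrpl11 gave -0.27 and -0.52, and another lay under the floor on the Q84E array. Mrpl10, which anchors Mrpl12, differed less, with 2446, 2304 and 2247 and a log2 ratio of -0.036.

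Around the site where peptide bonds form, Mrpl16, Mrpl3, Mrpl27 and Mrpl2 had log2 ratios of -0.18, -0.15, -0.13 and -0.030 for Q84E over wild-type. At the exit of the tunnel 5 of 6 genes were below 0: Mrpl47 at -0.27, Mrpl45 and Mrpl22 at -0.21, Mrpl17 at -0.17 and Mrpl24 at -0.15. The exception was Mrpl23, with signals of 4021, 4515 and 4948. Its signals ran against the order of the group, at 0.17 for wild-type over parental, 0.13 for Q84E over wild-type and 0.30 for Q84E over parental. The sign of its ratio over wild-type turned with a common median.

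In some genes the wild-type array had the highest signal. Mrpl41, a mitochondria-specific protein, had signals of 3125, 4266 and 3462. The wild-type signal stood above both others, at log2 ratios of 0.45 for wild-type over parental but -0.30 for Q84E over wild-type. A second bright probe set of Mrpl41 gave 0.18 and -0.18, the same order at a smaller size. Mrpl36, a small protein with a bacterial counterpart, had 2718, 3399 and 2909, and Mrpl52 had 5912, 6972 and 6197. For these the ratios were 0.32 and -0.22, and 0.24 and -0.17, but 2 further bright probe sets of Mrpl52 had 0.097 and 0.16 for wild-type over parental and -0.017 and -0.048 for Q84E over wild-type, with little difference between the transgenic lines.

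Other genes descended from parental to wild-type to Q84E cells. Mrpl9, which lies near the base of the stalk that releases spent transfer RNA, had signals of 4067, 3573 and 3053. Its log2 ratio for Q84E over parental was -0.41, the lowest after Mrpl42, and its other probe sets gave -0.37 and -0.56, the latter with no descent from parental to wild-type, at 0.019. Mrpl15 had 8073, 7341 and 6424, at -0.33 for that ratio, and its other bright probe sets ranged from -0.14 to -0.41, with no descent from parental to wild-type in 1 of them, at 0.061. Mrpl58, a peptidyl-tRNA hydrolase that was built into the ribosome and frees stalled chains, had 3745, 3472 and 3156, with ratios of -0.11 and -0.14 for the 2 steps.

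Few large subunit genes had their highest signal in Q84E cells. Mrpl33 had 848, 792 and 964, at 0.28 for Q84E over wild-type, and is the member with the lowest signals, in the brightness range where the technical SD is 0.16. Mrpl14, at the face that meets the small subunit, had 1468, 1547 and 1767, at 0.19. Mrpl13 had 9352, 9328 and 10128, at 0.12, but its other bright probe sets gave 0.038 and -0.16. Mrpl57 had 5838, 6448 and 6477, so that both transgenic lines were alike and somewhat above parental cells. None of these 4 genes was higher by over 2 technical SD in any of the 3 comparisons.

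Mrpl4 had signals of 4290, 3947 and 4094 and Mrps30 3551, 3559 and 3465. The first was lowest with wild-type ATP11A and the second was nearly even on the 3 arrays. The remaining large subunit genes lay between these examples. Mrpl50 had a ratio of -0.29 for Q84E over wild-type, with -0.26 for its other probe set. Mrpl19, Mrpl37, Mrpl18, Mrpl20, Mrpl49, Mrpl32, Mrpl44 and Mrpl35 had ratios between -0.23 and -0.11. Mrpl51, Mrpl21, Mrpl43, Mrpl54, Mrpl34 and Mrpl55 lay between -0.089 and -0.0012, and Mrpl1, Mrpl28 and Mrpl39 between 0.0037 and 0.047. Mrps36 belongs to neither subunit, since its product is now known as a component of the 2-oxoglutarate dehydrogenase complex. Its signals of 2809, 2704 and 2552 followed the same order as many of the ribosomal genes, at -0.084.

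The shift was seen in proteins of both origins. The 45 genes with a bacterial counterpart had a median log2 ratio of -0.15 for Q84E over wild-type, with 36 below 0, and the 30 without one had -0.14, with 27 below 0. For Q84E over parental the medians were -0.15 and -0.16. Whether these groups differ was not tested.

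Further probe sets of the same genes offer a look at the same RNA through other probes. Of the 76 genes 42 had several, which gave 80 probe sets beside the brightest ones. Of these, 34 from 22 genes lay at or above the 75th percentile on all 3 arrays, and 31 of the 34 had a ratio below 0 for Q84E over wild-type, with a median of -0.18. Between wild-type and parental cells 19 of the 34 were below 0, with a median of -0.012, and for Q84E over parental 26, with a median of -0.16. Set beside the brightest probe set of its gene, the other one was below 0 together with it in 27 cases for Q84E over wild-type, above 0 together with it in 2, and opposite in 5. The largest gap was 0.49, in Mrpl28, where 1 probe set gave 0.51 and the brightest 0.021. With dimmer probe sets included, at or above the floor on all 3 arrays, 47 of 65 were below 0, with a median of -0.14. A share over all genes was had for the brightest of the other probe sets of each gene, dimmer ones included. For Q84E over wild-type 33 of 39 members were then below 0, against 43.8% of 5482 genes. For wild-type over parental 16 were, against 47.8%, and for Q84E over parental 24, against 43.7%.

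**Figure D3:**
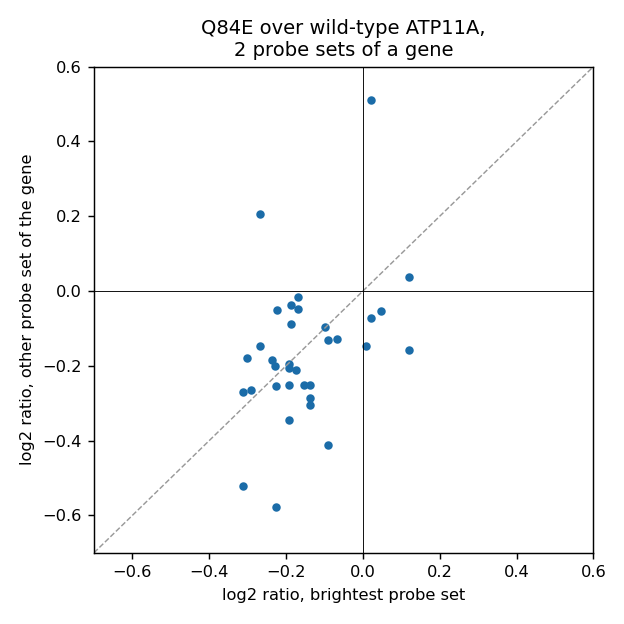
Each point is 1 of the 34 further probe sets at or above the 75th percentile, with the log2 ratio of Q84E over wild-type of the brightest probe set of its gene on the x axis and its own on the y axis. The dashed line marks equal ratios, and 27 of the points lie to the lower left, where both are below 0. A gene with several further probe sets gives several points.

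Other genes of mitochondrial translation were set beside these. The mitochondrial translation factors start, extend and end the chains, and all 14 of the 16 listed that could be compared had a ratio below 0 for Q84E over wild-type, with a median of -0.15. They ranged from Mtrf1l, a release factor with signals of 747, 813 and 605 and a log2 ratio of -0.43, to Tufm, the elongation factor that delivers transfer RNAs, with 3499, 2895 and 2866 and -0.014. A second bright probe set of Tufm, with 1919, 1785 and 1844, was above 0, at 0.047. Between wild-type and parental cells the median of the 14 factors was 0.0086, with Guf1 lowest at -0.32 and Mrrf highest at 0.15. For Q84E over parental it was -0.22, again between Guf1, at -0.38, and Mrrf, at 0.034. With quantile normalization 13 of the 14 remained below 0 for Q84E over wild-type.

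Subunits of the mitochondrial ribosome with other names did not all share the order on the deposited scale. Gadd45gip1, also called CRIF1, sits at the tunnel exit and had signals of 2324, 2456 and 1808. This brightest probe set was low in Q84E cells alone, at -0.44 over wild-type. The other one, dimmer at 222, 219 and 276, was highest in Q84E cells, at 0.34, so the direction was not shared. Chchd1, a small subunit protein, had 8024, 7459 and 6860, a descending order with -0.12. Ptcd3, another small subunit protein, had 4295, 4034 and 3921, at -0.041, and Dap3, which binds GTP in the small subunit, had 5230, 5494 and 5767, at 0.070. Of these 4 genes 3 were below 0 with the deposited scale and all 4 with a common median, and Aurkaip1 had no named probe set.

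Factors that assemble the ribosome or modify its RNA were spread on both sides with the deposited scale. Of 27 compared, 16 had a ratio below 0 for Q84E over wild-type, with a median of -0.023. With quantile normalization 17 were below 0 and with a common median 22, with medians of -0.070 and -0.16. Of all genes 48.5% and 63.3% were then below 0. Among those that reached the 75th percentile on at least 1 array they ran from Fastkd2, which binds mitochondrial ribosomal RNA, at -0.49 to Trub2, a pseudouridine synthase, at 0.26. The further bright probe sets of Trub2 went the other way, at -0.16 and -0.058. Within the same limit the ends were Mpv17l2 at -0.47 and Mettl15 at 0.25 for wild-type over parental, and Fastkd2 at -0.40 and Dhx30 at 0.24 for Q84E over parental. Mettl15, with signals of 352, 417 and 411, reached the limit on both transgenic arrays but not on the parental one. Its place at the end thus depends on the arrays where it was high. The list of mitochondrial transfer RNA synthetases, 19 genes compared, had 12 below 0 and a median of -0.026. Under the same 2 scalings 12 and 15 were below 0, with medians of -0.057 and -0.16. The list also holds Gatb, Gatc and Qrsl1, which encode subunits of an amidotransferase and no synthetase. Within the limit of the 75th percentile the list ran from Ears2, for glutamate, at -0.58 to Vars2, for valine, at 0.43. Also within it, Ears2 was highest for wild-type over parental at 0.81 and Hars2 lowest at -0.16. For Q84E over parental Vars2 was highest at 0.38 and Qrsl1 lowest at -0.35. Ears2, with signals of 219, 385 and 258, reached the limit on the wild-type array alone. Its places at the ends thus depend on the array where it was high. The other Vars2 probe set, with 307, 320 and 287, gave -0.16 for Q84E over wild-type and -0.10 for Q84E over parental.

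Regulators of mitochondrial biogenesis gave mixed values with the deposited scale, with 8 of 12 below 0 and a median of -0.034 for Q84E over wild-type. With quantile normalization 7 were below 0 and with a common median 10, with medians of -0.017 and -0.17. The nuclear receptor gene Esrra, with signals of 730, 823 and 543, was the lowest at -0.60. Nrf1, with 636, 605 and 739, and Gabpb1, a subunit of GABP, with 565, 560 and 664, were highest in Q84E cells, at 0.29 and 0.24. Gabpa, the DNA-binding subunit, had 2675, 2555 and 2499, and Yy1 had 7126, 7927 and 7704, at -0.032 and -0.041. Myc, a growth regulator, had 6131, 6318 and 6896, at 0.13. In the transcription machinery of mitochondrial DNA, Tfam was at -0.037, Tfb2m at -0.027, Polrmt at -0.056 and Tefm at -0.076. The coactivators Pprc1 and Ppargc1b were at -0.17 and 0.13, and Ppargc1a lay under the floor on all 3 arrays. Esrra and Nrf1 thus stood at opposite ends of the same list.

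Genes of the cytosolic ribosome and of the respiratory complexes were set beside them too. The cytosolic ribosomal protein genes, 46 compared, had a median of 0.094 for Q84E over wild-type with the deposited scale, with 8 below 0, which became 0.0078 with quantile normalization and -0.043 with a common median. The Q84E array gave the highest signal for 36 of the 46. Nuclear genes of the oxidative phosphorylation complexes, 74 compared, had a median of 0.018 and 25 below 0, which became 0.041 and -0.12 under these scalings. Relative to all genes, with a common median, the cytosolic list stood at 0.048, the oxidative phosphorylation list at -0.028 and the mitochondrial ribosomal list at -0.19. The difference between the lists was not tested, since genes of a list are not replicates.

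**Figure D4:**
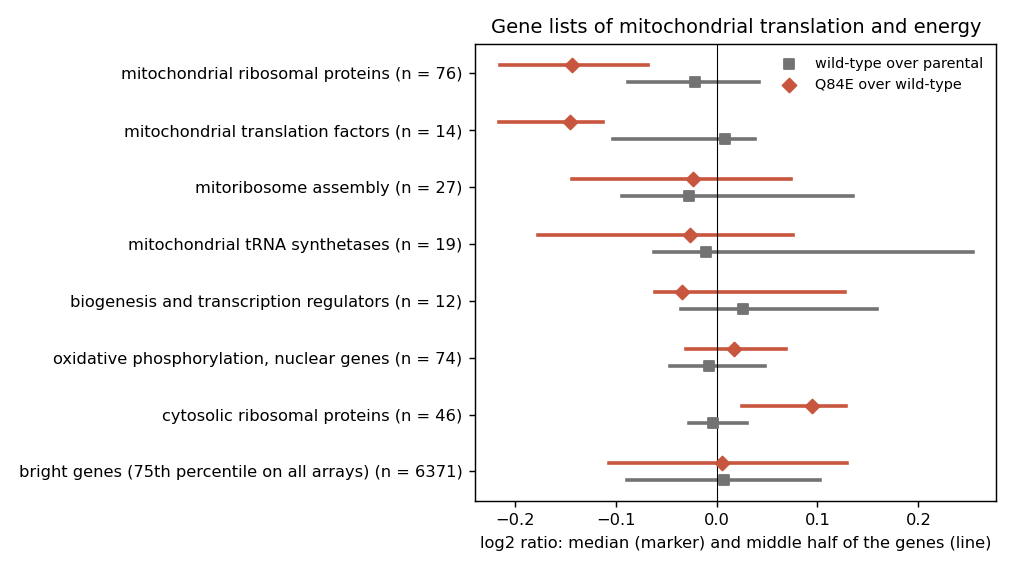
For each list on the y axis, with its number of compared genes, the marker is the median log2 ratio and the line the range from the 25th to the 75th percentile of its genes, for Q84E over wild-type (red diamonds) and wild-type over parental (grey squares). For Q84E over wild-type the mitochondrial ribosomal proteins, at -0.14, and translation factors, at -0.15, lie left of the bright genes, at 0.0055. The deposited scale is shown, and the sign of the 2 lists above the bright genes depended on the scaling. The list of transfer RNA synthetases also holds Gatb, Gatc and Qrsl1, which encode subunits of an amidotransferase.

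The promoter windows were searched for 9 motifs on both strands. The NRF1 letters were found in 15 of the 67 genes, or 22.4%, against 15.6% of the 9043 compared genes with a window. The ETS letters were found in 25, or 37.3%, against 20.7%, and the YY1 letters in 12, or 17.9%, against 5.45%. Over all 17492 protein-coding genes with a window the shares were 9.63%, 12.9% and 3.57%. At least 1 of these 3 motifs was found in 42 genes, or 62.7%, against 35.9% of compared genes, and 10 genes held more than 1 kind. Of the matches, 13 of 23 for NRF1, 21 of 29 for ETS and 9 of 12 for YY1 began within 50 bases of the start, before or after it. The same shares were not computed for the compared genes, so nearness to the start was not shown to be particular to the members. An NRF1 site that matches on both strands, as in Mrpl32, Mrpl39 and Mrpl9, was counted for each strand. The match says only that the letters are there, not that a factor binds.

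The other motifs were no more common than among compared genes, apart from the last. The E-box CACGTG was in 7.46% against 11.7%, the GC box GGGCGG in 50.7% against 68.1%, the CCAAT box in 38.8% against 42.7% and TATAAA in 7.46% against 8.50%. The element CTCGCGAGA was in 1.49% against 1.74%, and ACTACAA in 7.46% against 4.94%. The NRF1 and GC box letters are both rich in G and C, and overlap between motifs was not removed.

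**Figure D5:**
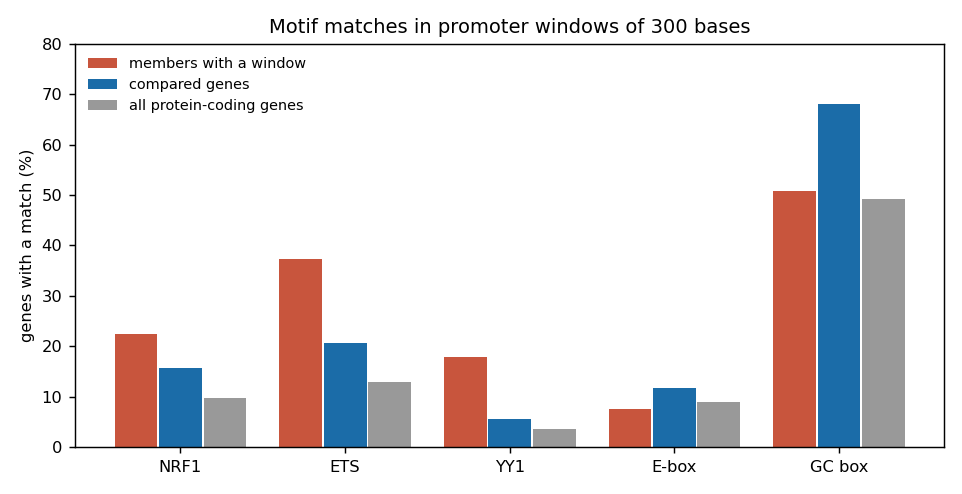
Bars give the percentage of genes whose window of 300 bases holds a match, for 5 of the 9 motifs on the x axis, among the 67 members with a window (red), the 9043 compared genes (blue) and all 17492 protein-coding genes (grey). The members stand above the compared genes for NRF1, ETS and YY1, at 22.4%, 37.3% and 17.9%, and below them for the E-box and the GC box.

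The ratios of the genes did not separate clearly by these motifs. For Q84E over wild-type the median was -0.16 with and -0.13 without NRF1 letters, and -0.13 with and -0.16 without ETS letters. With the YY1 letters it was -0.21 and without them -0.13. Of the 8 genes with the YY1 letters after the start, printed above, 6 were below 0, among them Mrpl42, Mrps27 and Mrps7, with a median of -0.20, and Mrps18a and Mrps24 were above 0. These are descriptions of few genes, and no test was made.

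Many of the genes share their start region with a neighbour. A promoter window that overlapped one of a divergent neighbour on the opposite strand was found for 22 of the 67 genes, or 32.8%, against 17.7% of compared genes. Mrpl46 and Mrps11 face each other. Among the others, 19 had a neighbour that was no member and could be compared, and of these pairs the member had a ratio below 0 for Q84E over wild-type in 17 and the neighbour in 9. The medians were -0.13 and 0.00071. Of all genes compared 41.9% were below 0, and of bright genes 48.6%, so the contrast may only restate the shift of the members. The members are all bright, whereas the neighbours were not limited to bright genes. Zfp189, for example, had signals of 144, 120 and 49, the last under the floor. Whether neighbours differ from other genes of like brightness was not tested. Between wild-type and parental cells 11 members and 13 neighbours were below 0, and for Q84E over parental 15 and 11, with medians of -0.14 and -0.026.

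In some pairs both genes were bright and their values came apart. Mrpl47 was at -0.27 and its neighbour Ndufb5, a subunit of respiratory complex I, at 0.024, with signals of 9194, 9040 and 9189 for the latter. Mrps27 was at -0.33 and Ptcd2 at 0.13, but over parental cells their Q84E ratios were alike, at -0.30 and -0.27. Mrps12 was at -0.24 and Sars2, the mitochondrial seryl-tRNA synthetase, at 0.19. In contrast, the facing pair Mrpl46 and Mrps11 had -0.13 and -0.21, and Mrps7 and its neighbour Gga3 had -0.29 and -0.15. These pairs were picked after their values were seen.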

How the data were processed

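Total RNA (250 ng) from 3 cultures of WR19L-derived cells was labelled by 3' in vitro transcription, per the labels' protocols. The deposited values are an array intensity for each of 45101 probe sets, on a linear scale, made by the authors, who per the submitters' processing notes used MAS5; no version is given in the sources used here. Their trimmed mean, without 2% at each end, was 500.0 on every array. A single scaling factor per array can hide or spread a shift of many genes.

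The platform's annotation gave 34958 probe sets exactly 1 symbol, 932 several and 9211 none; 34754 were matched to RefSeq by Entrez identifier, including all 156 of the genes described. Per gene the brightest probe set was used. From the deposited intensity, log2 levels were taken, with a floor at the 50th percentile of each array; 11617 of 18194 genes reached it on at least 1 array. A ratio is a difference of 2 log2 levels. Values were called by size (1.2-fold, 1.5-fold, 2-fold, or over 2 technical SD), since 1 array per group allows no test. The steps were tested on simulated data. Python 3.11.15, pandas 2.3.3, numpy 2.4.6 and matplotlib 3.10.9 were used.

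Members could all be named. Values on all 3 arrays were given for the 5 highest and 5 lowest per comparison, those past 1.5-fold, members under the floor (none), Mrpl12, Mrpl11, Mrps18a, Mrps18b, Mrps18c, Mrps12, Mrpl58, Mrps36, Mrpl41 and Mrps30. Those of Mrps7, Mrps9, Mrps14, Mrps24 and Mrpl10 were given outside this rule. Of other lists the highest and lowest gene at the 75th percentile were named, and the other subunits and regulators all. The members, lists, motifs and rules were chosen with earlier results of these data known. The members' medians and counts were recomputed under 10 other settings, 1 of them chosen after seeing the data, and the medians of the other lists under the 2 other scalings.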

Additional observations from a re-analysis of the deposited data

How the results depend on the processing

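No paired analysis was possible because each group is 1 array. Over 10 other settings, of which 1 was chosen after seeing the data, the brightest of the other probe sets of 39 genes, the median log2 ratio of the members lay between -0.28 and -0.12 for Q84E over wild-type and between -0.29 and -0.087 for Q84E over parental, and members were below the median of all genes by 0.12 to 0.19 and by 0.13 to 0.22 on the log2 scale. For wild-type over parental it reversed to 0.019 with the other probe sets. Counts past 1.2-fold moved more. With a common median, 44 genes were lower for Q84E over wild-type and 47 for Q84E over parental, against 22.2% and 25.5% of all genes. In both ratios 0 were higher, against 11.9% and 14.2% of all genes. With quantile normalization 0 were higher for Q84E over wild-type, against 15.3% of all genes. With the mean of all probe sets, 2 were higher for Q84E over wild-type and 5 in each ratio over parental cells, and 3 were lower for wild-type over parental. With the other probe sets, of 39 genes, 9 were lower and 3 higher for Q84E over wild-type and 6 in each ratio over parental cells, while 1 was lower on the wild-type than on the parental array and 8 were lower for Q84E over parental. Without the probe sets whose names end in _x_at, _s_at or _a_at, 62 genes were left. Of these 2 were lower for wild-type over parental, against 13.3% of all genes. The cause was not tested, except that common-median scaling lowers every Q84E level. Signal over background did not limit the members, all being bright. The number of arrays did.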
